A study of Homo sapiens with 20 samples.

Results

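The proteasome subunits were read from the deposited array values as every probe set whose single annotated symbol was PSMA, PSMB, PSMC, PSMD or PSME followed by a number, with pseudogenes and PSMC3IP left out. The rule gave 36 genes of the 11963 that had at least 1 probe set annotated to them alone, and 58 of 22215 probe sets. Of the 58, 53 passed the filter on dim probe sets and still covered all 36 genes. PSMA6 and PSME2 were carried only by probe sets annotated with several symbols, so they are not members, and PSMC5, PSMD7, PSMD13, PSMA8 and PSMB11 were not analysed here. The cells were THLE-3, an established human line derived from adult liver epithelium and immortalised by SV40 large T antigen. Their medium held leucine at 0.1 mM (low) or 2 mM (high), and they were collected at 0, 30, 60, 120 or 480 min. Each of the 10 groups had 2 arrays, 1 from a first and 1 from a second experiment, so n = 2 arrays per group throughout. Neither the medium before 0 min nor whether an experiment was a separate culture is stated in the labels, so the spread behind each p-value is that between these arrays and may be technical.

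The proteasome is the protease that degrades ubiquitin-tagged proteins in the cytosol and nucleus and returns their amino acids, leucine among them, to the cell's pool. Its core is a barrel of stacked rings, in which PSMA genes encode the outer alpha rings that gate entry and PSMB genes the inner beta rings that hold the protease sites. A regulatory cap binds the barrel, with a base of PSMC ATPases that unfold substrates and a lid of PSMD subunits that removes ubiquitin, and PSME genes encode other activators. When proteasome activity falls short, the transcription factor NRF1, encoded by NFE2L1, is known to raise the subunit genes together through antioxidant response elements.

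Array means lay between 761.8 and 862.6 intensity units. Arrays of 1 experiment resembled each other more than arrays of 1 leucine level or time. For the 45 pairs of groups, the correlation across probe sets of the second minus first experiment differences was at least 0.808. Each comparison was therefore fitted in limma without a term for the experiment (unblocked fit) and with it (blocked fit). Both give the same log2 change and differ in its error. A probe set is said to have risen or fallen, or to be higher or lower, as a call where its adjusted p was under 0.05 over all 13329 probe sets kept. Where members at an unadjusted p under 0.05 are counted without the count over all probe sets, no excess can be read from them. For the liver label, 5 of 8 hepatocyte markers on the array passed the filter. These ran from percentile 45.28 of all probe sets for FGB to 89.97 for CYP3A4. ALB, which encodes serum albumin, was below the filter at percentile 9.92, the lowest of the 8. The epithelial keratin KRT18 lay at percentile 99.1. All 7 stellate and fibroblast markers also passed, with VIM at percentile 99.2. Of 4 biliary markers, KRT7 and KRT19 passed at percentiles 96.1 and 96.0, while EPCAM and SOX9 lay below the filter at 10.8 and 24.3. Of 7 blood and immune markers on the array 5 passed the filter, with CD14 the highest at percentile 74.2. PTPRC, the common marker of blood cells, was below the filter, and LYZ, which encodes lysozyme, lay at percentile 5.88.

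Among the comparisons of leucine level at single times, only that at 480 min had proteasome probe sets called. The median log2 difference of the 53, high minus low leucine, was 0.11, a fold of 1.08, against -0.01 for all 13329 probe sets, and 40 of 53 were positive (75.5% against 47.2%). The blocked fit called 7 members higher and 0 lower, 13.2% of them, where 2.48% of all probe sets were called higher and 1.61% lower (4.09% in all). The unblocked fit called 0 of 53, with 12 at an unadjusted p under 0.05, and 0.27% of all probe sets were called. The 7 belonged to PSMA2, PSMD11, PSMD12 and PSME3. Without the second-experiment array of high leucine at 480 min 1 member was called, without the low-leucine array of the first or second experiment 2 or 3, and with array weights 4. Counted per gene at the probe set with the highest mean, 3 of 36 genes were called higher, with a median of 0.12.

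Both experiments gave the same direction for most members. The first experiment gave a median difference of 0.10 and the second one of 0.11. High leucine gave the higher value in both experiments at 37 probe sets (69.8%, against 30.9% of all probe sets) and the lower value in both at 7 (13.2% against 32.4%). Both high-leucine arrays lay above both low-leucine arrays at 21 members, where 13.4% of all probe sets did so, and below them at 3 members, where 13.5% did so. Those 3 were PSMD8, PSMB6 and the PSMD4 probe set 211609_x_at. In the quantile-normalized values, other probe sets of like signal did not share the difference. Such scaling gives each array the same distribution, which itself limits a shared shift of bright probe sets. Among 2853 other probe sets at or above a mean log2 value of 10.5, the lower quartile of the members, the median difference was -0.01 and 3.26% were called higher. Of the 40 members in that range, the median was 0.12 and 5 were called, 12.5%. With values as deposited or centred on the array median, the members' median was 0.14 or 0.16 and 8 were called higher and 0 lower. Other bright probe sets then had medians of 0.02 and 0.04, with 3.75% and 4.77% called higher. All probe sets split into 331 higher and 174 lower as deposited and 409 and 128 with median centring, beside 330 and 215 in the quantile-normalized values.

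The lid was the subunit group with the highest median at 480 min, 0.24 over 8 probe sets, of which 4 were called higher. PSMD12 and PSMD11 encode scaffold subunits of the lid. At 480 min the PSMD12 probe set 202352_s_at read 10.67 and 10.43 (normalized log2 intensity, first and second experiment) in low leucine and 10.85 and 10.87 in high leucine. The second probe set, 202353_s_at, read 10.13 and 9.96 in low leucine and 10.39 and 10.31 in high leucine. The groups did not overlap at either probe set. The differences were 0.32 ± 0.08 (SE, blocked fit, adjusted p = 0.040; unblocked 0.82) and 0.31 ± 0.07 (blocked fit, adjusted p = 0.020; unblocked 0.69).

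PSMD11 moved likewise at both of its probe sets. Probe set 208777_s_at read 10.76 and 10.67 in low leucine and 11.01 and 10.95 in high leucine, and 208776_at read 9.42 and 9.18 against 9.61 and 9.47. High leucine was above low leucine without overlap at both. The differences were 0.26 ± 0.06 (blocked fit, adjusted p = 0.019; unblocked 0.41) and 0.24 ± 0.05 (blocked fit, adjusted p = 0.0093; unblocked 0.70). PSMD14, the deubiquitinase of the lid that strips ubiquitin chains from substrates, read 10.56 and 10.63 in low leucine and 10.87 and 10.82 in high leucine. Its groups did not overlap either, but the difference of 0.25 ± 0.07 missed the threshold (blocked fit, adjusted p = 0.074). PSMD8 was the 1 lid probe set with a negative value, -0.05. The remaining lid members, PSMD3 and PSMD6, had differences of 0.23 and 0.19 and were not called.

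In the core particle, 1 of 10 alpha-ring probe sets was called. PSMA2 encodes an alpha-ring subunit. Its probe set 201317_s_at read 11.99 and 11.74 in low leucine and 12.30 and 12.11 in high leucine at 480 min. The high-leucine arrays lay above the low-leucine arrays, and each was the highest of the 10 arrays of its experiment. The difference was 0.35 ± 0.05 (blocked fit, adjusted p = 0.0021; unblocked 0.84). It was the only member called in each of the 30 alternatives to the blocked fit that were run at 480 min. The dimmer PSMA2 probe set 201316_at differed by 0.17 and was not called (blocked fit, adjusted p = 0.097). Alpha-ring probe sets ranged from -0.09 for PSMA3 to that value of PSMA2, with a median of 0.12 and 9 of 10 positive.

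The beta rings had 0 of 13 probe sets called. The constitutive beta subunits had a median of 0.11, with 9 of 10 positive. PSMB5, which carries the chymotrypsin-like site, read 11.73 and 11.52 in low leucine and 11.79 and 11.72 in high leucine, a difference of 0.13. PSMB6, with the caspase-like site, differed by -0.05 and PSMB7, with the trypsin-like site, by 0.09. The immunoproteasome subunits that take their places after interferon exposure had a median of 0.06. PSMB8 differed by -0.01, PSMB9 by 0.10 and PSMB10 by 0.06. The low-leucine and high-leucine arrays overlapped for PSMB5, PSMB7, PSMB8, PSMB9 and PSMB10. A missed threshold with 2 arrays per group does not show that these genes were unaffected.

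The base stood apart from the lid in its values, although the difference between subunit groups was not tested. Its ATPase probe sets had a median of 0.00 over 6, from -0.16 for PSMC3 to 0.22 for PSMC6, and 0 were called. PSMC6 shows the spread, with differences of 0.06 and 0.38 in the first and second experiment. The non-ATPase base probe sets also had a median of -0.00 over 6 and 0 calls. Within them the 3 of PSMD4, the ubiquitin receptor of the base, had negative values of -0.12, -0.13 and -0.20, while the 3 of PSMD1 and PSMD2, its large scaffold subunits, were positive. The base assembly chaperones PSMD5, PSMD9 and PSMD10, which are not part of the finished particle, had a median of 0.04 and 0 calls.

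Among the activators, 2 of 7 probe sets were called and both were of PSME3, which encodes the nuclear activator PA28 gamma. At 480 min probe set 209853_s_at read 10.59 and 10.41 in low leucine and 10.90 and 10.81 in high leucine, and 200987_x_at read 10.68 and 10.65 against 11.05 and 10.97. High leucine was above low leucine without overlap at both. The differences were 0.35 ± 0.07 (blocked fit, adjusted p = 0.012; unblocked 0.83) and 0.35 ± 0.09 (blocked fit, adjusted p = 0.034; unblocked 0.93). The other PSME3 probe sets, 209852_x_at and 200988_s_at, differed by 0.18 and 0.13 and were not called, and 209852_x_at is the one with the highest mean. The suffix x marks probe sets in which some probes resemble other sequences. PSME4, the activator PA200, differed by 0.19 at 212219_at (blocked fit, adjusted p = 0.065) and by -0.01 at 212220_at. PSME1, a subunit of the interferon-induced activator PA28, differed by -0.02.

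**Figure D1:**
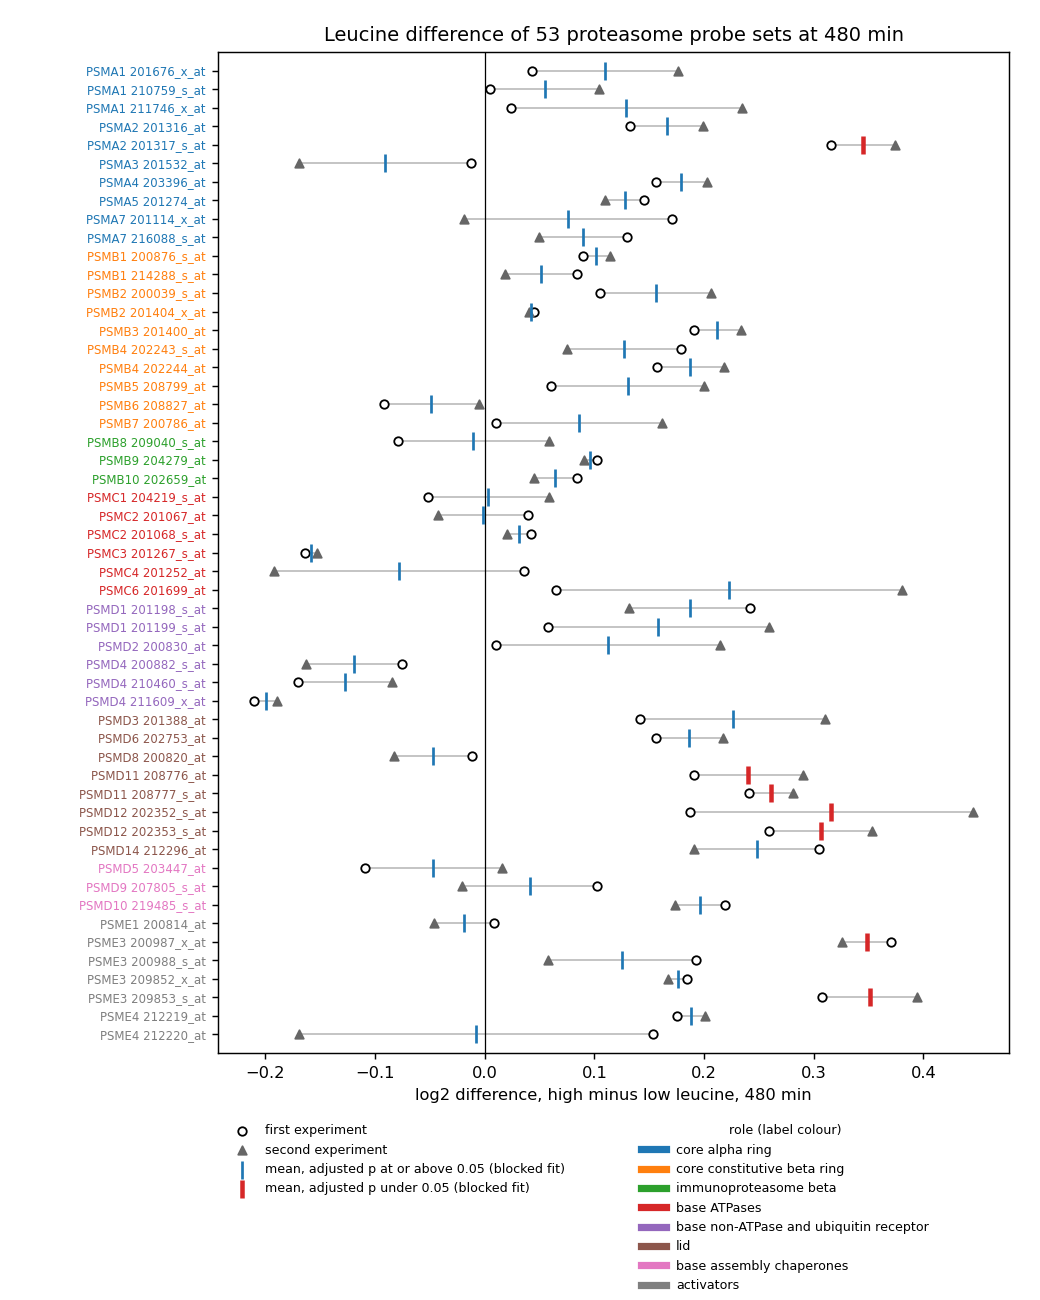
Leucine difference of each proteasome probe set at 480 min (x axis, log2 of high minus low leucine), with 1 line per probe set and label colours for the subunit group. Open circles are the first experiment, grey triangles the second and bars their mean. The 7 red bars are the probe sets called in the blocked fit, and they belong to PSMA2, PSMD11, PSMD12 and PSME3.

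Promoter sequence is shown for the genes called at 480 min and for PSMD14, the lid deubiquitinase that missed the threshold there. The 250 bases before the RefSeq start of each gene were taken for build GRCh38.p14 and are printed on the gene's strand, 5′ to 3′. Windows were at hand for 31 of 36 member genes, and PSMA7, PSMB1, PSMB6, PSMB7 and PSMD4 had none. Capitals mark matches on either strand to the antioxidant response element core TGACNNNGC or to the CCAAT box.
PSMA2, chr7:42932175-42932424, minus strand: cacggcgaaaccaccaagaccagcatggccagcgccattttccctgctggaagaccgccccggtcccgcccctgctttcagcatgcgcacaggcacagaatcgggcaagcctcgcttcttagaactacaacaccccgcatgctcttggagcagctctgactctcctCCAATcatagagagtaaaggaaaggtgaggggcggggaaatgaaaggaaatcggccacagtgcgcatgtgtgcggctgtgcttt
PSMD11, chr17:32444260-32444509, plus strand: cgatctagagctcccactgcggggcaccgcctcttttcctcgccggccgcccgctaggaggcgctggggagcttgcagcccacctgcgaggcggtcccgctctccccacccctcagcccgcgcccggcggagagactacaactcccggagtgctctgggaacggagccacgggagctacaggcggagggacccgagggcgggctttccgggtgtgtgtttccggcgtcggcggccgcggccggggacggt
PSMD12, chr17:67366578-67366827, minus strand: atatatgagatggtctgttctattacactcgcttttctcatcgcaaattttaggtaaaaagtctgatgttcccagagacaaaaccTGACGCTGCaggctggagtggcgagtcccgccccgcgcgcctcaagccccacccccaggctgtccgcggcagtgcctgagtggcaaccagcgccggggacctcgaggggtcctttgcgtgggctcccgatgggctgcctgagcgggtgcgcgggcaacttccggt
PSME3, chr17:42833147-42833396, plus strand: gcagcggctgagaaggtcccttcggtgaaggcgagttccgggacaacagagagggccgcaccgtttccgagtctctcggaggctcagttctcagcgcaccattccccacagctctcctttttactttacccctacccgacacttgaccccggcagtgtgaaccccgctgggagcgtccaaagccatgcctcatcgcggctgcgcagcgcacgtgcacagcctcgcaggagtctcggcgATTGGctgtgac
PSMD14, chr2:161308175-161308424, plus strand: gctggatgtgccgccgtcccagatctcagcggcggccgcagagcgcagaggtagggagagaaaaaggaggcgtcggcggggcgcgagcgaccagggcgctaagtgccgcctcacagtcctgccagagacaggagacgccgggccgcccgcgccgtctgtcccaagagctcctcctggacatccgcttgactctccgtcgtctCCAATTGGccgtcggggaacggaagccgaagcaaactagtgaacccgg

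The marked letters differ between the 5 windows. PSMD12 holds TGACGCTGC, a match to the antioxidant response element core that starts 165 bases before the gene start. PSMA2 holds CCAAT 84 bases before the start, PSME3 its reverse complement ATTGG 12 bases before the start, and PSMD14 the overlapping pair CCAATTGG 48 bases before the start. PSMD11 holds neither. Over all members with a window, TGACNNNGC (reverse complement GCNNNGTCA) was in 9 of 31 (29.0%), against 10.9% of 35116 windows of the same length. Those 9 were PSMA4, PSMB3, PSMB9, PSMD12, PSMD3, PSMD5, PSMD9, PSME1 and PSME4. The CCAAT box was in 15 of 31 (48.4%), against 32.0% of all windows. The core of the ATF4 response element, TGATGNAA (TTNCATCA), was in 0 of 31 member genes and in 3.14% of all windows. Member shares count genes, and the 31 genes have 36 windows, while the shares of all count windows. A gene with several windows has more chances of a match, so the shares are not strictly comparable. A match describes the letters of a window and not a bound site. Of the 4 genes called at 480 min, only PSMD12 had the antioxidant response element core in its window.

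Within a leucine level only 480 min was set against 0 min, and members were called in high leucine alone. From 0 to 480 min in high leucine the blocked fit called 15 member probe sets higher (28.3%) and 3 lower (5.66%), where 8.64% of all probe sets rose and 6.61% fell. The members' median change was 0.08, against -0.02 for all probe sets. Counted per gene at the probe set with the highest mean, the median was 0.045. In that count 10 of 36 genes were called higher and 1 lower. Without the second-experiment array at 480 min 7 were called in place of 18, and without that at 0 min 11. The unblocked fit called 1 of 53, where it called 1.13% of all probe sets higher and 0.593% lower. Over the same time in low leucine 0 members were called by either fit, with 8 at an unadjusted p under 0.05 in the blocked fit and 0 in the unblocked fit. There the members' median change was -0.01, and the blocked fit called 0.143% of all probe sets higher and 0.09% lower, the unblocked fit 0%. With median centring that median was 0.00 and positive. Leaving out the first-experiment low-leucine array at 0 min gave 1 call there. The high-leucine array at 480 min was the highest of the 10 arrays of its experiment, in both experiments, at 20 of 53 members (37.7%), against 7.68% of all probe sets. It was the lowest in both at 4 members (7.55% against 5.57%), which were PSMC3 and the 3 probe sets of PSMD4.

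In the lid, 5 of 8 probe sets rose in high leucine and the group median was 0.34. PSMD12 rose by 0.48 ± 0.08 and 0.46 ± 0.07 at its probe sets (blocked fit, adjusted p = 0.0012 and 5.0e-04). At 202352_s_at the arrays at 0 min read 10.49 and 10.27 in high leucine, against 10.85 and 10.87 at 480 min. PSMD11 rose by 0.36 ± 0.05 and 0.34 ± 0.06 (blocked fit, adjusted p = 1.7e-04 and 0.0014) and PSMD14 by 0.33 ± 0.07 (blocked fit, adjusted p = 0.0070). The 480 min arrays lay above the 0 min arrays without overlap for these 3 genes.

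Among the activators 5 of 7 probe sets rose, 4 of them of PSME3, with a median of 0.28. Counted per gene 2 of 3 rose, while PSME1 changed by -0.24 and was not called. The difference between subunit groups was not tested. PSME4 rose by 0.33 ± 0.05 at 212219_at, from 9.22 and 9.25 to 9.59 and 9.56 (blocked fit, adjusted p = 8.8e-04). It was also the 1 member the unblocked fit called (adjusted p = 0.018). All 4 PSME3 probe sets rose, by 0.21 to 0.32. In the core, PSMA2 rose by 0.27 ± 0.05, PSMA5 by 0.21 ± 0.06 and PSMB4 by 0.21 ± 0.06 at 202244_at. PSMD1 rose by 0.24 ± 0.06 at 201199_s_at and the chaperone PSMD10, also known as gankyrin, by 0.26 ± 0.08. In high leucine PSMD10 read 10.35 and 10.29 at 0 min, 10.68 and 10.54 at 30 min and 10.74 and 10.42 at 480 min. PSMB4 at 202244_at read 3579 and 3696, 4521 and 4789, and 4705 and 4419 intensity units as deposited at these times. For both genes the rise was already present at 30 min. No ATPase or immunoproteasome probe set was called, with medians of -0.07 over 6 and -0.05 over 3.

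PSMD4 was the exception among the called members, with all 3 of its probe sets falling in high leucine. The changes were -0.30 ± 0.08, -0.27 ± 0.07 and -0.37 ± 0.07 (blocked fit, adjusted p = 0.024, 0.019 and 0.0022). At 211609_x_at the arrays read 11.34 and 11.42 at 0 min and 11.10 and 10.91 at 480 min, without overlap. The change was -0.24 in the first and -0.51 in the second experiment. With values as deposited or median centring only this probe set of PSMD4 was still called. PSMD4 changed by -0.16, -0.16 and -0.07 in low leucine and was not called there. The scaling also moved the balance of calls in high leucine. As deposited, 24 members rose and 1 fell, with 1569 of all probe sets rising and 511 falling. With median centring the members split 25 to 1 and all probe sets 1784 to 470, beside 15 to 3 and 1151 to 881 in the quantile-normalized values. The members' median was then 0.17 and 0.18, and that of other bright probe sets 0.08 and 0.09.

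**Figure D2:**
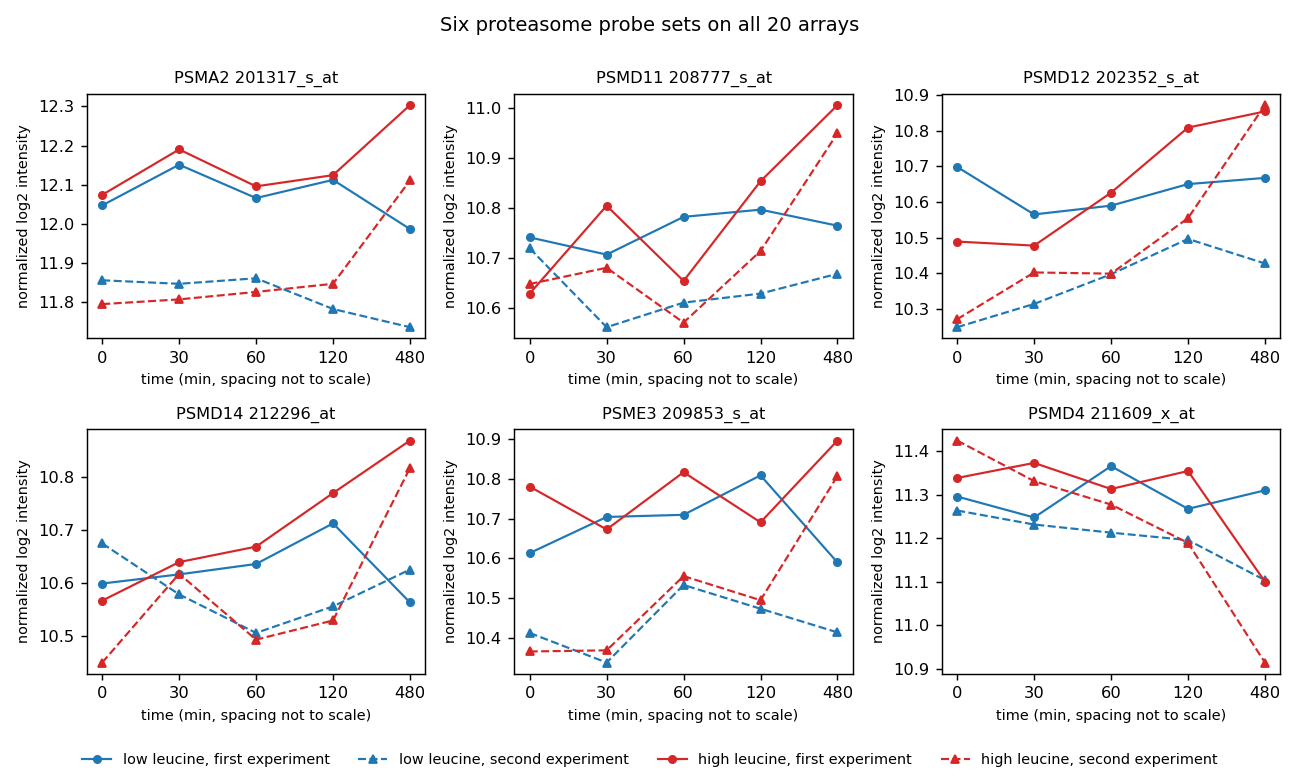
Normalized log2 intensity (y axis) of 6 proteasome probe sets on all 20 arrays against time in min (x axis, spacing not to scale), with red for high and blue for low leucine, solid lines for the first and dashed lines for the second experiment. PSMA2, PSMD11, PSMD12, PSMD14 and PSME3 reach their highest value of each experiment at 480 min in high leucine, and PSMD4 its lowest.

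A test of the difference between the changes in high and low leucine called 6 members higher and 0 lower in the blocked fit (11.3%), where 2.69% of all probe sets were higher and 1.13% lower. The unblocked fit called 0 members and 0% of all probe sets. It had 11 of 53 members at an unadjusted p under 0.05, beside 1038 of all 13329 probe sets. The members' median was 0.08 against -0.01. PSMD12 at 202353_s_at differed most, by 0.58 ± 0.10 (blocked fit, adjusted p = 0.0064), and PSMD10 differed by 0.51 ± 0.11 (adjusted p = 0.021). Part of the PSMD12 difference and most of the PSMD10 difference came from 0 min. There high minus low leucine was -0.27 for that PSMD12 probe set and -0.32 for PSMD10 (blocked fit, adjusted p = 0.074 and 0.072). At 0 min PSMB4 at 202244_at and PSMD11 at 208777_s_at also had high leucine below low leucine without overlap, with differences of -0.14 and -0.09. PSMD10 at 0 min read 10.63 and 10.65 in low leucine and 10.35 and 10.29 in high leucine, and at 480 min 10.52 and 10.24 against 10.74 and 10.42. Its groups were apart at 0 min and overlapped at 480 min.

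PSMA2 at 201317_s_at differed by 0.36 ± 0.08 (blocked fit, adjusted p = 0.018), PSMB4 at 202244_at by 0.33 ± 0.08 (adjusted p = 0.037) and PSMD11 by 0.35 ± 0.08 and 0.26 ± 0.07 (adjusted p = 0.028 and 0.044). PSMA2 at 0 min read 12.05 and 11.86 in low leucine and 12.07 and 11.80 in high leucine, so its groups overlapped at the start. This comparison uses the same 480 min arrays as the one at 480 min alone. The call depended on single arrays and their weights. With array weights 1 member was called. Without the second-experiment low-leucine array at 0 or 480 min, the first-experiment high-leucine array at 0 min or the second-experiment one at 480 min, 2 were called. Without the first-experiment high-leucine array at 30, 60 or 480 min, or the second-experiment one at 60 min, 4 were called. These counts can include members outside the 6. Of the 6, PSMD12 was the one called in all 28 alternatives in which it was tested. As deposited and with median centring the counts were 12 and 13, all higher (22.6% and 24.5%). All probe sets split into 587 higher and 105 lower as deposited and 610 and 101 with median centring. Other bright probe sets then had medians of 0.08 and 0.09, with 7.04% and 7.29% called higher.

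**Figure D3:**
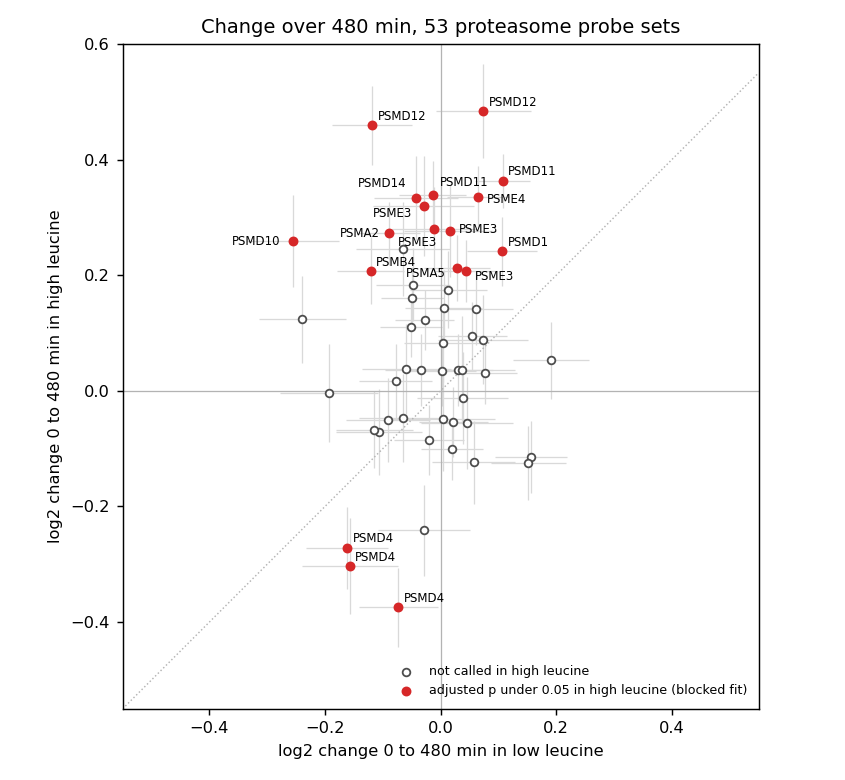
Log2 change from 0 to 480 min in high leucine (y axis) against that in low leucine (x axis) for 53 proteasome probe sets, with SE bars of the blocked fit and a dotted line of equal change. The 18 filled points were called in high leucine, 15 above zero and the 3 of PSMD4 below it, while 0 were called in low leucine.

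Before 480 min leucine level was not accompanied by a called proteasome difference. The blocked and unblocked fits called 0 of 53 members at 0, 30, 60 and 120 min, where the blocked fit called 0.578%, 0%, 0% and 0.03% of all probe sets. Those at 0 min were mostly lower in high leucine (0.495% lower and 0.0825% higher). At an unadjusted p under 0.05 the blocked fit had 8, 1, 1 and 1 members and the unblocked fit 3, 0, 0 and 0. The members' medians were 0.01, 0.01, 0.02 and 0.00. With values as deposited or median centring those at 0 and 120 min turned negative, to between -0.04 and -0.02. The lid ran the other way at 0 min, with 7 of 8 probe sets negative and a median of -0.09, none of them called. The average over the 5 times takes in the 480 min difference and is no separate reading of the earlier times. In it, 45 of 53 members were positive (84.9%, against 52% of all probe sets). The members' median was 0.03, and 32 of them were higher in both experiments (60.4% against 31.6%). Neither fit called any of them, where the blocked fit called 0.173% of all probe sets, 0.0225% higher and 0.15% lower. At an unadjusted p under 0.05 were 7 members in the blocked fit and 0 in the unblocked fit. Of all 13329 probe sets 948 and 309 were at that level. PSMD11 at 208776_at came closest, at 0.09 ± 0.02 (blocked fit, adjusted p = 0.12).

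**Figure D4:**
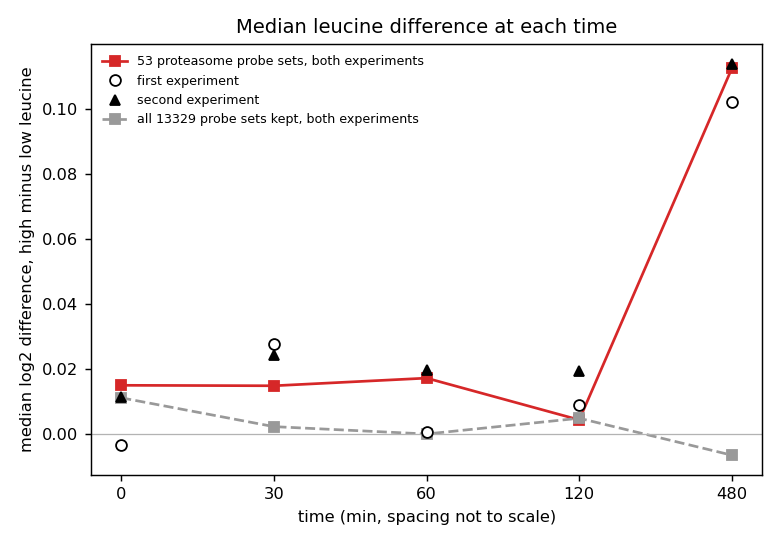
Median log2 difference of high minus low leucine (y axis) at each time in min (x axis, spacing not to scale), in red for the 53 proteasome probe sets and in grey for all 13329 kept, with open circles and triangles for the members' median in each experiment. The members' median stays between 0.00 and 0.02 up to 120 min and reaches 0.11 at 480 min, with 0.10 and 0.11 in the 2 experiments.

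Genes that act around the proteasome were read from 4 lists, and no test compared these with the subunits. Of 8 kept genes on the list of NRF1 control, the blocked fit called 2, both lower in high leucine, and the list's median was -0.17. NFE2L1 itself, which encodes NRF1, differed by -0.36 ± 0.06 at the probe set with the highest mean (blocked fit, adjusted p = 0.0032; unblocked 0.051). Its other probe sets gave -0.35 (adjusted p = 0.0084) and -0.30 (adjusted p = 0.064). NGLY1, the glycanase that edits NRF1 into its active form, differed by -0.22 ± 0.06 (blocked fit, adjusted p = 0.037; unblocked 0.20). NFE2L2, which encodes the related factor NRF2, differed by -0.20 and was not called (adjusted p = 0.46). In high leucine NFE2L1 fell by 0.48 on the log2 scale from 0 to 480 min, called in both fits (adjusted p = 1.2e-04 blocked and 0.0045 unblocked). The subunit probe sets that rose over the same time thus stand beside a lower reading of NFE2L1. Protein and processing of NRF1 were not measured.

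Assembly factors and proteins bound to the proteasome had 0 of 13 genes called at 480 min and a median of 0.04. POMP, which matures the core particle, differed by 0.17 (blocked fit, adjusted p = 0.16), the core chaperone PSMG1 by -0.11, the deubiquitinase USP14 by 0.02 and the inhibitor PSMF1 by 0.00. From 0 to 480 min in high leucine 3 of the 13 rose and 1 fell in the blocked fit. POMP rose by 0.26, the ubiquitin receptor ADRM1 by 0.28 and the small lid subunit SEM1 by 0.30, and the chaperone PAAF1 fell by 0.19 on the log2 scale (adjusted p = 0.012, 0.011, 0.027 and 0.033). Of 12 genes for ubiquitin, shuttles and the p97 segregase, 1 was called at 480 min, the p97 cofactor NSFL1C, at 0.34 ± 0.06 (adjusted p = 0.0037 blocked and 0.043 unblocked). The ubiquitin gene UBB differed by 0.00. The class I antigen presentation list, which the immunoproteasome feeds, had 0 of 12 called and a median of -0.03.

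Markers of other cells were read beside these values. Of 7 blood and immune markers on the array 5 passed the filter, and 1, CD14, was higher in high leucine at 480 min, by 0.53 (blocked fit, adjusted p = 0.0053). The mean level of the 5 was 9.59 and 9.42 in low leucine and 9.62 and 9.59 in high leucine. Of the biliary markers, 2 of 4 were kept, and KRT19 was higher by 0.52 (adjusted p = 0.0013) while KRT7 differed by -0.16 and was not called. KRT8 and KRT18, the keratins of simple epithelium, were not called either, nor was any of 7 markers of stellate cells and fibroblasts. From 0 to 480 min in high leucine, where 15 member probe sets rose, CD14 rose by 0.64, CD74 by 0.21, KRT19 by 0.61 and the myofibroblast actin ACTA2 by 0.32, and the hepatocyte marker APOA1 changed by -0.26 (blocked fit, adjusted p = 5.2e-04, 0.014, 1.3e-04, 0.0039 and 0.029). These were 2 of 5 kept blood and immune markers, 1 of 2 biliary, 1 of 7 stellate and fibroblast and 1 of 5 hepatocyte markers. The part of cell makeup in the proteasome differences was not tested. Arrays of whole cultures cannot tell fewer cells of a type from less RNA per cell.

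Averaged over leucine levels, 480 min against 0 min gave 7 members higher and 3 lower in the blocked fit, where 6.49% of all probe sets were higher and 4.46% lower. As deposited and with median centring the members' split was 15 to 0 and 16 to 0. The split of all probe sets under these scalings is not given here, so the members' split cannot be set against it. PSMD11 rose by 0.24 ± 0.03 and 0.16 ± 0.04, PSMD12 by 0.28 ± 0.06 and 0.17 ± 0.05, PSME4 by 0.20 ± 0.04, PSMD1 by 0.17 ± 0.04 at 201199_s_at and PSME3 by 0.13 ± 0.04 at 200988_s_at. The 3 that fell were the probe sets of PSMD4, with changes of -0.23, -0.22 and -0.22. In place of 10 calls there were 6 without the second-experiment low-leucine array at 0 min, 5 without that at 480 min, 5 without the second-experiment high-leucine array at 0 min and 4 without that at 480 min, and 6 with array weights. The unblocked fit called PSME4 alone (adjusted p = 0.047), where it called 1.21% of all probe sets. At 30, 60 and 120 min 0 members were called, where the blocked fit called 0.0075%, 2.54% and 0.893% of all probe sets, at 60 min 1.16% higher and 1.37% lower. A fit with a time course for each experiment called 3 members higher and 5 lower at 480 min in the second experiment, where 5.82% and 4.2% of all probe sets were called, and 0 in the first. The lower ones were the 3 of PSMD4, PSMB9 and PSME1. The difference between the experiments was itself called for 0 members.

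The experiments differed more than the leucine levels did. In the second experiment 32 of 53 members were lower and 6 higher (blocked fit), where 26% of all probe sets were lower and 36.1% higher. The members' median was -0.09 against 0.03. Some cell type markers differed by more. KRT7 and KRT19 were higher in the second experiment by 1.28 and 0.63, KRT8 and KRT18 by 0.84 and 0.64, and of 7 stellate and fibroblast markers 3 were higher and 4 lower, from -0.62 for COL3A1 to 0.34 for ACTA2. Their part in the members' difference was not tested. The size depended on the scaling, since with values as deposited 16 were lower and 9 higher with a median of -0.02, while median centring gave 32 and 6. The 10 arrays of the second experiment all lay below the 10 of the first for PSMA5, PSMB7, PSMB9, PSMC4 and PSMC6, and all above for PSMC2 at 201068_s_at. Such a separation was seen downwards in 7.95% and upwards in 7.34% of all probe sets.

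PSMC6, an ATPase of the base, had the lowest value of all members. It read 10.73 to 10.91 in the first experiment (median 10.83) and 10.24 to 10.62 in the second (median 10.45). The difference was -0.37 ± 0.03 (blocked fit, adjusted p = 1.1e-07). The ATPases PSMC1, PSMC3 and PSMC4 were also lower, with differences of -0.13, -0.25 and -0.26, while PSMC2 was higher at both of its probe sets, by 0.27 ± 0.03 at 201068_s_at. All 3 immunoproteasome subunits were lower, PSMB9 by 0.26, PSMB8 by 0.19 and PSMB10 by 0.07 (log2 scale). Of the catalytic constitutive subunits, PSMB5 differed by -0.10, PSMB7 by -0.21 and PSMB6 by 0.10, all called. PSME3 probe sets disagreed with each other, from -0.28 at 200987_x_at to 0.15 at 209852_x_at. Their leucine differences at 480 min were all positive.

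**Figure D5:**
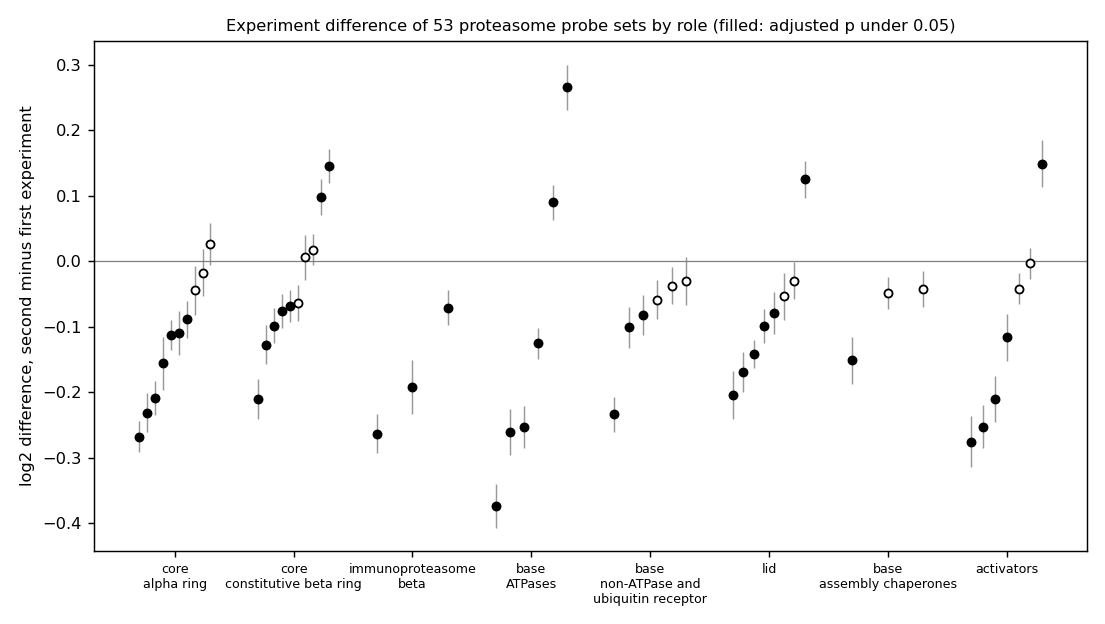
Log2 difference of the second minus the first experiment (y axis) for 53 proteasome probe sets, sorted by value within each subunit group (x axis), with SE bars of the blocked fit. Filled points are called, 32 below and 6 above zero, and the range runs from PSMC6 at -0.37 to PSMC2 at 0.27.

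The 5 members below the filter were read in a fit without it. They were dimmer probe sets of PSMB1, PSMD4, PSMD5, PSMD9 and PSME4, with mean log2 values from 8.53 to 8.92, and each gene also had a probe set among the 53. Their leucine differences at 480 min ran from -0.14 for PSMD4 to 0.08 for PSMD5, and 0 were called. The negative PSMD4 value has the sign of the brighter PSMD4 probe sets.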

How the data were processed

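THLE-3 RNA was hybridised to 20 Affymetrix arrays of the HG-U133 A design. The values the authors deposited are linear probe set intensity; their summarisation and scaling are not given in the sources used here. Before log2, 165.2 was added as a pseudocount (the 10th percentile, median of the arrays), which pulls changes of dim probe sets towards 0, and arrays were quantile normalized. Probe sets at or above the 40th percentile of mean log2 were kept. Symbols came from the platform annotation, updated through RefSeq (19065 probe sets with 1 symbol, 1043 with several, 2107 with none). limma 3.58.1 (R 4.3.3) fitted 1 mean per group to the 20 arrays, with an intensity trend and two-sided tests adjusted by Benjamini-Hochberg, with 10 residual degrees of freedom unblocked and 9 blocked. The labels name the experiment of each array, so the experiment pairs the samples. For arrays, their number limits the precision. The fits were tested on simulated data. Alternatives were other pseudocounts, scalings, filters, variance priors, array weights, 1 probe set per gene, single experiments and left-out arrays. Named were a fixed panel (catalytic beta subunits, PSMD4, PSMD11, PSMD12, PSMD14, PSME genes, NFE2L1, NFE2L2, POMP, PSMF1, PSMG1, USP14 and UBB; 1 further gene of the panel is not reported here) and, per comparison, up to 12 largest rises and falls past the threshold, or, with fewer than 5 genes past it, the 5 with the lowest p-values. Genes named at the ends of a range, in a list of 5 or fewer or as the remainder of a subunit group were chosen after their values were seen. The members and lists were chosen with earlier results of these data known. The counts of arrays highest or lowest in their experiment, the fit with a time course per experiment and the values below the filter were added after seeing the data.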

Additional observations from a re-analysis of the deposited data

Results flagged for a closer look

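The change from 0 to 480 min differed between leucine levels at 6 proteasome probe sets by a test of the difference itself (limma, blocked fit), high minus low leucine on the log2 scale. For PSMD12 at 202353_s_at the difference was 0.58. PSMD10 followed at 0.51, mostly from a lower value in high leucine at 0 min, and its groups overlapped at 480 min. PSMA2 at 201317_s_at gave 0.36, and PSMD11 gave 0.35 at 208777_s_at and 0.26 at 208776_at. PSMB4 at 202244_at gave 0.33. All 6 were positive in both experiments. In the unblocked fit their adjusted p lay between 0.41 and 0.86. With array weights in the blocked fit only PSMD12 of these kept its call. PSMD11 at 208776_at also lost its call with no filter and with no variance trend.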

How the results depend on the processing

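With the experiment as a replicate block, which pairs the arrays of an experiment, member calls went from 0 to 7 at 480 min, from 1 to 18 for the change in high leucine, from 0 to 6 for the difference of changes and from 1 to 10 for 480 against 0 min. The block changed no other count of member calls. The remaining values here are without the block. The 1 call at 480 against 0 min was 0 with no filter, with a filter at the 60th percentile, with no variance trend and with array weights. In high leucine, values as deposited and median centring each gave 7 calls.

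With values as deposited, the members' median leucine difference was -0.038, 0.038, 0.034, -0.037 and 0.14 at 0, 30, 60, 120 and 480 min and 0.016 averaged. With median centring it was -0.024 at 0 min, 0.059 at 30 min, -0.033 at 120 min and 0.16 at 480 min. Median changes under values as deposited and median centring were 0.091 and 0.10 for 480 against 0 min, 0.17 and 0.18 in high leucine, and 0.19 and 0.19 for the difference of changes. Median centring gave 0.080 and 0.068 at 60 and 120 against 0 min. For the difference between experiments, values as deposited gave 25 calls and a median of -0.020. A pseudocount 4 times larger gave 0.012 at 30 min and 0.10 at 480 min, and one 4 times smaller 0.017 at 30 min. With no filter the medians were 0.10 at 480 min and 0.039 for the change in high leucine, and with 1 probe set per gene 0.023 at 30 min. Within the first experiment the medians were -0.0035, 0.028, 4.2e-04 and 0.10 at 0, 30, 60 and 480 min. Within the second they were 0.024 at 30 min, 0.019 at 120 min, 0.035 averaged and 0.13 for the difference of changes. For these the cause was not tested.

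Leaving out 1 array at a time moved the median from -0.030 to 0.045 at 0 min, from -0.029 to 0.078 at 30 min, from -0.054 to 0.073 at 60 min, from -0.062 to 0.078 at 120 min, from 0.067 to 0.16 at 480 min and from 0.017 to 0.041 averaged. For the change in high leucine it ran from 0.036 to 0.14 with 0 to 2 calls, for low leucine from -0.067 to 0.039, and for the difference of changes from 0.058 to 0.15. For 480 against 0 min there were 0 to 1 calls. Of 41 single probe set or gene values under 1213 alternatives, 1135 kept direction and side of the threshold, 26 fell below it, 52 passed it and 0 changed sign. These are values of the unblocked fit, which called few members, so a kept side of the threshold says little about the blocked calls. In the blocked fit array weights gave 4 calls in place of 7 at 480 min. They gave 13 in place of 18 for the change in high leucine and 1 in place of 6 for the difference of changes. With no filter these counts were 6, 17 and 5. With 2 arrays per group, differences near the members' median are below what a single probe set could show.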
